A study of Mus musculus with 11 samples.

Results

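The primitive streak and caudal regulators described here are 10 mouse genes, T, Eomes, Mixl1, Mesp1, Mesp2, Tbx6, Cdx1, Cdx2, Evx1 and Gsc, taken by gene name from RNA-seq tables of embryonic stem cells (mESCs) and embryonic fibroblasts (MEFs). The tables list 34570 genes between them. The mESC table lists all 10 members and the MEF table lists 9, without Cdx2, which was therefore not analysed in MEFs. Every gene of the MEF table has a count in at least 1 library, so a gene without counts would have no row there. Whether Cdx2 is missing for that reason was not tested. The choice uses gene names alone and no measured value. Poly(A) RNA was sequenced from cells carrying no functional Atxn7l3, written Atxn7l3-/-, and from wild-type (WT, Atxn7l3+/+) cells, all of DBA/2 x C57BL/6 background and without further treatment. Atxn7l3 codes for an adaptor protein that activates the deubiquitylases acting on monoubiquitylated histone H2B. There were 2 WT and 3 Atxn7l3-/- mESC libraries, and 3 MEF libraries of each genotype. The mESC lines came from individual blastocysts and were grown first on feeder cells and then without them, with leukaemia inhibitory factor, 15% foetal calf serum, 1 µM PD0325901, which inhibits MEK, and 3 µM CH99021, which inhibits GSK3 and so raises WNT/beta-catenin signalling. The MEFs were grown in 10% serum from single embryos of embryonic day 10.5, dissociated without the head and the gastrointestinal tract, and hold whatever cell types survived in that culture. Some libraries stood apart. Atxn7l3-/- mESC libraries 1 and 2 and WT MEF library 3 had few counts of the Y-linked genes Ddx3y, Uty and Eif2s3y, unlike the other 8 libraries. Kdm5d, also Y-linked, was low in Atxn7l3-/- mESC library 3 as well (26 counts), and the MEF libraries labelled Atxn7l3-/- kept 59.9% of the WT level of Atxn7l3.

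At gastrulation, cells of the epiblast enter the primitive streak under WNT and NODAL signals and leave it as mesoderm and endoderm. The members code for transcription factors that act in this process, and some of them can also be expressed in mESC cultures, where single cells differ in how far they have left the naive state. T (Brachyury) and Eomes are T-box factors, T of the streak, node and notochord and Eomes of the early streak, definitive endoderm and trophoblast. Mixl1, Evx1 and Gsc are homeodomain factors of the streak, Evx1 of its posterior part and Gsc of its anterior part, the organizer. Mesp1 and Mesp2 are bHLH factors of early mesoderm and of the segmenting presomitic mesoderm, and Tbx6 is a T-box factor of presomitic mesoderm. Cdx1 and Cdx2 are caudal-type homeodomain factors that set posterior identity, and Cdx2 also specifies trophoblast. In mm10, the genome build of the files, T lies at chr17:8434423-8442496 and Eomes at chr9:118478212-118486132, both on the plus strand, and Mixl1 at chr1:180693043-180697034 on the minus strand. Mesp1 (chr7:79792241-79793788, minus strand) and Mesp2 (chr7:79810727-79813439, plus strand) are neighbours in opposite orientation, and Tbx6 lies elsewhere on the same chromosome (chr7:126781483-126785560, plus strand). Cdx2 is at chr5:147300805-147307270 on the minus strand, Evx1 at chr6:52313498-52318378 on the plus strand beside the Hoxa cluster, and Gsc at chr12:104471209-104473330 on the minus strand.

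Windows from the table of RefSeq promoters (build GRCm38.p6) were searched for 8 of the 10 members. Cdx1 was left aside and no window was used for Mixl1. The bases upstream of the start are shown for 3 members that were lower (T, Cdx2 and Evx1) and 2 that were higher (Mesp2 and Tbx6) in every Atxn7l3-/- mESC library, so that the sites near their starts can be compared. The 250 bases before the start were searched on both strands for 4 kinds of site, and capitals mark the matches. A TCF/LEF site was any of the words CTTTGAA, then with another end CTTTGAT, also its variant CTTTGTA, and lastly the form CTTTGTT. The T-box site searched was GGTGTGA, that of CDX factors was TTTATNG and that of FOXH1 was AATNCACA.
T, chr17:8434173-8434422, plus strand: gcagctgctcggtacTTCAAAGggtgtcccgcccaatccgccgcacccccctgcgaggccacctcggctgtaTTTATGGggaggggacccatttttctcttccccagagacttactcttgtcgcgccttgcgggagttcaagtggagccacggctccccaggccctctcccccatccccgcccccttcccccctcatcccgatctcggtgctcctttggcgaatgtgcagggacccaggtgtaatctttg
Cdx2, chr5:147307271-147307499, minus strand: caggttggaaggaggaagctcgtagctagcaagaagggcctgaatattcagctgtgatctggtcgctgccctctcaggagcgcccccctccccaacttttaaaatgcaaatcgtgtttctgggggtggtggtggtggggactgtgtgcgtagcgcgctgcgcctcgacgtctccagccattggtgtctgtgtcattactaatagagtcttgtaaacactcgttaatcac
Evx1, chr6:52313248-52313497, plus strand: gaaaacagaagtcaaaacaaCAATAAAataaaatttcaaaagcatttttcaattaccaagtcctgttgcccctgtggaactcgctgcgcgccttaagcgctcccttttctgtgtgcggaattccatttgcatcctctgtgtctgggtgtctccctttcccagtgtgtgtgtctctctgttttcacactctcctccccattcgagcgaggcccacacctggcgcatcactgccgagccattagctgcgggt
Mesp2, chr7:79810477-79810726, plus strand: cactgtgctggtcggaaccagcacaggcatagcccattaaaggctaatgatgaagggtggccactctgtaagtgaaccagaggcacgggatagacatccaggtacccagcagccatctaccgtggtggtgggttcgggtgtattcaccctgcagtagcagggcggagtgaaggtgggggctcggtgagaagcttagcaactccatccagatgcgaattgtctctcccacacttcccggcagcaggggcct
Tbx6, chr7:126781233-126781482, plus strand: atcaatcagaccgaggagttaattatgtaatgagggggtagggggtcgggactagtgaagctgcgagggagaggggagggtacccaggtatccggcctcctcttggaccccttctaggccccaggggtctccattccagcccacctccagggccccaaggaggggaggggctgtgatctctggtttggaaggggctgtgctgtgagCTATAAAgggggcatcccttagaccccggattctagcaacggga
The window of T holds a TCF/LEF site that begins 235 bases before the start, and such a site occurs in 14.8% of all 32851 windows of this length. It also holds a CDX site, as do the windows of Evx1 and Tbx6, against 9.81% of all windows. In Tbx6 the CDX letters lie on the minus strand 44 bases before the start and read CTATAAA on the plus strand. The window of Mesp1, which is not shown, holds 2 TCF/LEF sites, at 73 and 31 bases before the RefSeq start. Of this window, 198 of the 250 bases lie inside the annotated gene, and both sites are among them. Such a site was thus found in the window of a member that was lower and of a member that was higher in the Atxn7l3-/- libraries. None of the 4 kinds of site was found in the windows of Cdx2, Mesp2, Eomes or Gsc. The shown stretch of Cdx2 is 229 bases long because 21 bases of its window lie inside the annotated gene.

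In mESCs, T, the defining factor of the streak, fell to about its detection limit in the Atxn7l3-/- libraries, and Cdx2 fell to 12.6% of its WT mean. Mesp2 and Tbx6, the members of presomitic mesoderm, stood above WT in all 3 Atxn7l3-/- libraries without passing the test, and Cdx1, the most abundant member, did not differ detectably. Of the 9 members tested, 2 passed edgeR's quasi-likelihood test at a Benjamini-Hochberg adjusted p of 0.05 or less, both lower, where 6.96% of all 17800 genes passed it (3.88% lower and 3.08% higher). At an unadjusted p under 0.05 there were 6 of 9, against 29.8% of all genes. With the study's further thresholds, a 2-fold change and a median above 10 normalized reads per kb, Cdx2 remained, while T did not, and 1.92% of all genes were lower and 2.76% higher by that rule. That median runs over all 5 mESC libraries, 3 of them Atxn7l3-/-, so a gene nearly lost from these fails it because of its fall. T had 70.0 and 110 normalized reads per kb in the WT libraries and a median of 5.19. The median log2 fold change of the 9 was -0.70, against 0.04 over all genes tested. The WT and Atxn7l3-/- libraries did not overlap for 9 of the 10 members, but this was also so for 49.7% of all genes tested. All genotype comparisons in this cell type rest on 2 WT libraries. The study had left out a further WT mESC dataset because in a principal component analysis it lay apart from its replicates. The WT spread and the non-overlap of the groups thus come from WT libraries kept for their likeness.

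T had 65 and 97 counts in the WT libraries and 3, 3 and 4 counts in the Atxn7l3-/- libraries. In CPM, the count relative to the library total after TMM scaling, this was 1.79 ± 0.565 (SD, n = 2) against 0.0890 ± 0.0170 (SD, n = 3). Without that scaling, a floor of 3 counts corresponds to between 0.0663 and 0.0856 CPM in these 5 libraries. With it, the 3 counts of T were 0.0902 CPM in Atxn7l3-/- library 1 and 0.0715 CPM in Atxn7l3-/- library 2. The groups were far apart and each was narrow. Pooled over libraries and corrected for depth, the Atxn7l3-/- level was 4.85% of WT, with a 95% exact interval of 2.28% to 9.16% that covers counting error only. On the log2 scale T changed by -4.29 (standard error 0.56, adjusted p = 0.0211 by edgeR), and it ranked 61 by p among all genes tested.

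Cdx2 had 362 and 194 counts in the WT libraries and 28, 52 and 8 in the Atxn7l3-/- libraries, so that the highest Atxn7l3-/- library lay below the lower WT library. Its level was 6.08 ± 2.39 CPM (SD, n = 2) in WT and 0.764 ± 0.518 CPM (SD, n = 3) in Atxn7l3-/- mESCs. The log2 fold change was -2.99 (standard error 0.71, adjusted p = 0.0479 from edgeR). Cdx1, its close relative, had 684 and 863 counts in WT and 718, 476 and 391 counts in Atxn7l3-/- libraries, ranges that overlap. Its log2 fold change was -0.25, with a 95% interval of -1.01 to 0.51 and an adjusted p of 0.702 from edgeR.

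The calls of T and Cdx2 depended on which libraries were in the fit. Without WT library 1, WT library 2 or Atxn7l3-/- library 1, neither passed, at adjusted p of 0.138, 0.142 and 0.0815 for T and 0.258, 0.181 and 0.136 for Cdx2 by edgeR, and in those fits 0, 0 and 3 of all genes passed. The log2 fold changes stayed between -4.59 and -3.93 for T and between -3.53 and -2.52 for Cdx2 when each library in turn was left out. Sex-linked expression was also unequal between the groups. Ddx3y, a Y-linked gene, had 4217 and 8508 counts in the WT libraries and 8532 in Atxn7l3-/- library 3, but 115 and 37 in Atxn7l3-/- libraries 1 and 2. In the 3 libraries with high Ddx3y counts alone, an alternative chosen after seeing the data, T had a log2 fold change of -4.05 (adjusted p = 0.0167 from edgeR) and Cdx2 one of -4.82 (adjusted p = 0.00621), with a single Atxn7l3-/- library that is assumed to vary like the WT libraries.

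Among the other factors of the streak, Evx1, Eomes and Mixl1 were lower in every Atxn7l3-/- mESC library than in either WT library, and none passed the test. Evx1 had 22 and 16 counts in WT and 4, 2 and 0 counts in Atxn7l3-/- libraries. Its log2 fold change was -2.88 (standard error 0.88, adjusted p = 0.0834 from edgeR), and its pooled level was 12.4% of WT with a counting interval of 4.29% to 29.6%. Evx1os, an antisense gene that overlaps Evx1, had 6 and 8 counts in WT and 0, 2 and 0 in Atxn7l3-/- libraries, and since the use of strand in counting is not given in the sources used here, reads of the pair may be mixed. The adjusted p of Evx1 by edgeR was 0.0328 with no filter on low counts and 0.0299 in the 3 libraries of high Ddx3y counts. Eomes had 186 and 248 counts in WT and 47, 107 and 64 in Atxn7l3-/- libraries, about 39.2% of the WT level in CPM. Its log2 fold change was -1.35 (standard error 0.46, adjusted p = 0.105 from edgeR and 0.0141 from DESeq2). Mixl1 had 36 and 42 counts in WT and 14, 18 and 28 counts in Atxn7l3-/- libraries, a log2 fold change of -0.70 with an adjusted p of 0.398 by edgeR.

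Gsc, Mesp1, Mesp2 and Tbx6 were higher in every Atxn7l3-/- mESC library than in either WT library, again without a call. Mesp2 had 66 and 37 counts in WT and 147, 135 and 172 in Atxn7l3-/- libraries, or 1.13 ± 0.410 CPM (SD, n = 2) against 4.06 ± 0.730 CPM (SD, n = 3). The means differed 3.60-fold, or by 1.84 on the log2 scale with a standard error of 0.50, and the adjusted p was 0.0639 by edgeR. With no filter on low counts the adjusted p of Mesp2 by edgeR was 0.0341, with DESeq2's Wald test it was 0.000436, and with the 3 libraries of high Ddx3y counts alone it was 0.0390, so that the call of Mesp2 turned on these choices. Tbx6 had 40 and 26 counts in WT and 58, 69 and 87 counts in Atxn7l3-/- libraries. Its log2 fold change was 1.38 (standard error 0.50) at an adjusted p of 0.120 by edgeR and of 0.0293 by DESeq2.

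Gsc, the organizer factor, had 6 and 19 counts in WT mESCs and 30, 20 and 42 in Atxn7l3-/- mESCs, where the lowest Atxn7l3-/- library exceeded the higher WT library by 1 count. Its log2 fold change was 1.56 with an adjusted p of 0.184 by edgeR. Mesp1 had no count in WT libraries and 3, 6 and 4 counts in Atxn7l3-/- libraries. Its mean of 0.113 CPM was at least 1.71-fold higher than the floor of 3 counts per library, and the gene was too low to be kept for the test. The plot of members in mESC libraries shows the 3 patterns side by side.

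**Figure D1:**
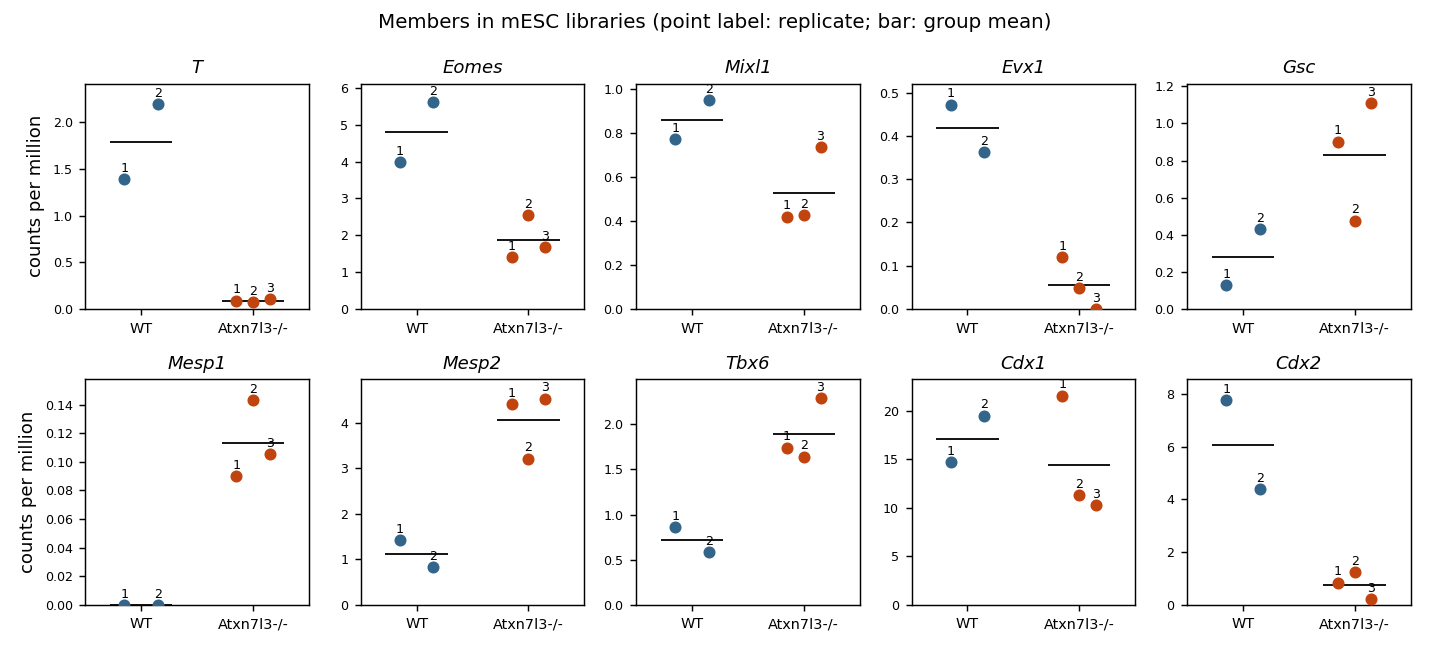
Level of each member in the 5 mESC libraries, in CPM on a linear axis that starts at 0, with a point per library numbered by replicate and a bar at the group mean. The 3 Atxn7l3-/- libraries lie below both WT libraries for T, Eomes, Mixl1, Evx1 and Cdx2, above both for Gsc, Mesp1, Mesp2 and Tbx6, and overlap them for Cdx1.

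**Figure D2:**
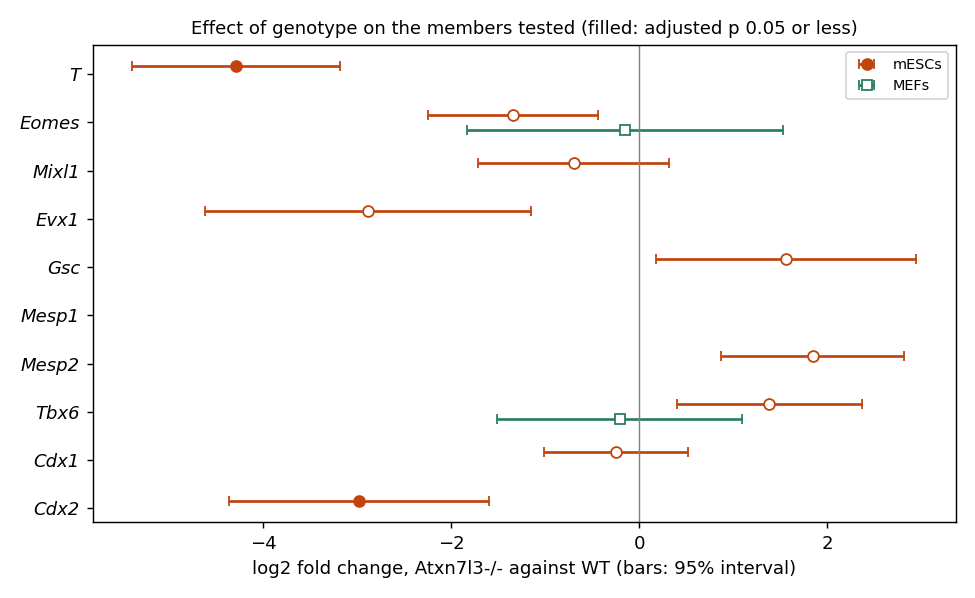
Log2 fold change of Atxn7l3-/- against WT with its 95% interval for the members kept for the test, 9 in mESCs (circles) and 2 in MEFs (squares). The filled points, T at -4.29 and Cdx2 at -2.99 in mESCs, are the calls at an adjusted p of 0.05 or less.

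Atxn7l3 itself, the check of the genotype, fell from 222 CPM in WT to 2.22 CPM in Atxn7l3-/- mESCs (log2 fold change -6.65, adjusted p = 0.0211 from edgeR). In the MEF libraries labelled Atxn7l3-/- it kept 59.9% of the WT level (log2 fold change -0.74, adjusted p = 0.0715 from edgeR), so the genotype of those libraries is given as labelled throughout. The study detected no ATXN7L3 protein in its Atxn7l3-/- MEFs, which is a measure of protein and not of the RNA in these libraries. The 12 pluripotency markers summed to between 5732 and 6485 CPM in mESCs, with Klf2 and Tbx3 called lower, and the 8 of them listed in MEFs to between 62.9 and 141 CPM. In mESCs their median log2 fold change was -0.59. Sox2, Zfp42 and Klf4 also stood below WT in every Atxn7l3-/- library, Dppa5a stood above it (967 and 1645 CPM), all uncalled, and the rest overlapped. In mESCs the summed level of 12 fibroblast markers was 1552 and 2640 CPM in WT libraries and 3544, 3642 and 6033 CPM in Atxn7l3-/- libraries. Most of this sum is Fn1, at 2026 CPM in WT and 4035 CPM in Atxn7l3-/- mESCs, which was not called. In a library, 0 to 2 of the 12 were at or under 3 counts. Of the 11 tested, 2 (Postn and Col1a1) were called higher, and the median log2 fold change was 2.54. The summed level of 9 trophoblast markers, the other tissue of Cdx2 and Eomes, was 84.1 and 44.3 CPM in WT and between 53.4 and 76.4 CPM in Atxn7l3-/- libraries, with Plac1 called lower. This sum is carried by Tfap2c and Gata3, and the median log2 fold change of the list was -1.33, with 7 of the 9 below 0. Krt7 had 10.5 CPM in WT and 2.28 CPM in Atxn7l3-/- mESCs, Gcm1 3.78 and 1.33 CPM, and Elf5 0.481 and 0.157 CPM. These markers stood lower, as Cdx2 and Eomes did, and none of them was called. Sox21 (3.12 and 9.07 CPM) and Tfap2c (16.9 and 32.5 CPM) stood higher, also uncalled, and Gata3 was about equal (15.2 and 15.0 CPM). Gut epithelium, endoderm, endothelial and macrophage markers summed to at most 1515, 37.7, 477 and 134 CPM in an mESC library, with 1, 1, 1 and 0 genes called. Cdh1 (924 CPM in WT and 1098 CPM in Atxn7l3-/- mESCs) and Epcam (117 and 319 CPM) made up most of the gut epithelium sum. Pecam1 (404 and 359 CPM) made up most of the endothelial sum. The mesothelial markers reached 1216 CPM in WT library 1 with no gene called, and the median log2 fold change of the 7 tested was -1.56. Krt8, Krt18, Krt19 and Lrrn4 stood below WT in every Atxn7l3-/- library, and the others overlapped. The part of these marker groups in the values of the members was not tested. In bulk RNA, fewer cells that express a member and less of its RNA per cell cannot be told apart.

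Levels of different members can be compared per kb of transcript, on the deposited scale of normalized reads per kb. In WT mESCs Cdx1 stood first at 374 ± 75.6 normalized reads per kb (SD, n = 2), apart from all others. Cdx2 at 103 ± 40.2, T at 90.3 ± 28.6 and Eomes at 64.0 ± 15.4 followed, and neighbours among these 3 overlapped in range. Mesp2 at 22.2 ± 8.02, Tbx6 at 17.0 ± 4.46, Mixl1 at 14.4 ± 2.12, Gsc at 8.43 ± 6.44 and Evx1 at 8.16 ± 1.51 came next, again with overlapping neighbours, and Mesp1 was at 0 in both libraries. The value of T uses a median transcript length of 761 bases, the shortest of the members.

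The order was different in the Atxn7l3-/- mESCs. Cdx1 stayed first at 305 ± 127 normalized reads per kb (SD, n = 3), and Mesp2 at 77.5 ± 13.4 and Tbx6 at 43.3 ± 8.20 came next, each apart from its neighbours. T at 4.35 ± 0.827 was eighth. Over all 5 mESC libraries, 7 of the 10 members had a median above 10 normalized reads per kb, as did 51.6% of all genes listed. In the MEF table, which was normalized on its own, only Eomes did, 1 of 9, against 51.2% of all genes listed.

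**Figure D3:**
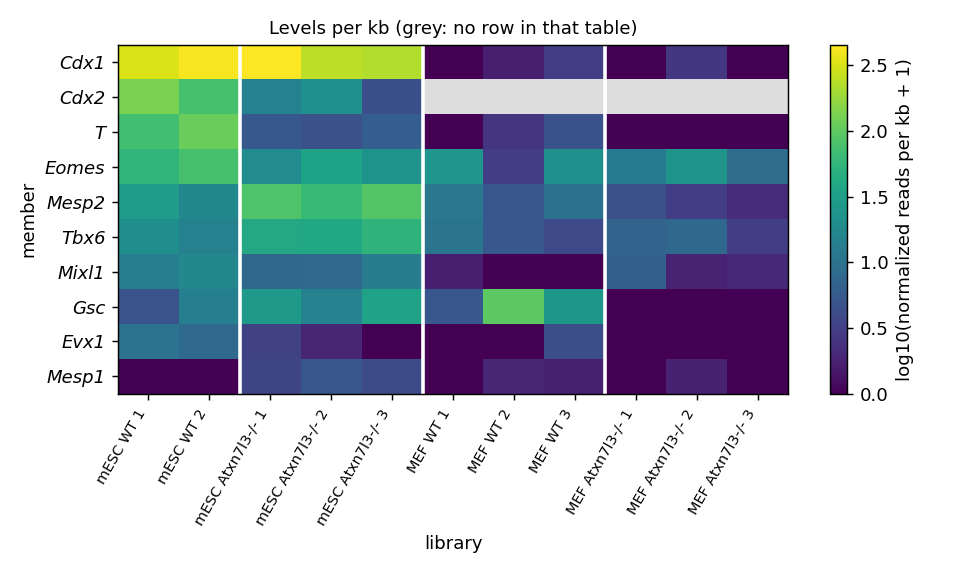
Level of each member in the 11 libraries as log10 of deposited normalized reads per kb plus 1, with members in the order of their mean in WT mESCs and grey where the table has no row. Levels of different members can be compared within a column, and the mESC and MEF tables were normalized separately. Cdx1 is first in all 5 mESC libraries, and 3 members (T, Evx1 and Gsc) are at 0 in all 3 MEF libraries labelled Atxn7l3-/-.

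In MEFs the members were near or under the detection limit, apart from Eomes, Gsc, Mesp2 and Tbx6 in some libraries and Mixl1 in 1 library. Only Eomes and Tbx6 were kept for the test, and of these 2 none was called, where 9.41% of the 15958 genes tested were called (5.01% higher and 4.39% lower, or 4.34% and 3.26% with the study's further thresholds). At an unadjusted p under 0.05 the count was also 0 by edgeR, against 32.4% of all genes, and DESeq2, which tests genes without this filter, called Gsc alone. When replicate numbers entered the fit as a block, the number of all genes called lower went from 701 to 1355 and that of members stayed at 0.

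Eomes had 86, 5 and 64 counts in the WT MEFs and 34, 66 and 20 counts in the MEFs labelled Atxn7l3-/-. One WT library was far below the other two and the groups overlapped. The log2 fold change was -0.15 with a 95% interval of -1.83 to 1.52 (adjusted p = 0.914 from edgeR). Tbx6 had 20, 6 and 5 counts in WT and 10, 11 and 3 counts in libraries labelled Atxn7l3-/-, which overlap as well, with a log2 fold change of -0.21 and an adjusted p of 0.847. Without WT library 3 the log2 fold changes of Eomes and Tbx6 were 0.14 and -0.50, also uncalled.

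Gsc, Mesp2 and Mixl1 had non-overlapping groups in MEFs, 3 of the 9 members, where 39.8% of all genes tested had. Gsc had 7, 105 and 34 counts in WT MEFs and none in the 3 libraries labelled Atxn7l3-/-. The WT mean of 1.27 CPM, which varied widely between libraries (SD 1.47, n = 3), makes the labelled Atxn7l3-/- level at least 17.3-fold lower, computed against the floor of 3 counts per library. Without WT library 2, which has 105 of the counts, this limit is 5.95-fold. edgeR's usual filter, which needs a minimum level in as many libraries as a group holds, left Gsc out, and without a filter Gsc passed at an adjusted p of 0.0244. In the 4 fits that left out 1 library and kept Gsc, its adjusted p by edgeR lay between 0.0596 and 0.148. Mesp2 had 26, 7 and 18 counts in WT MEFs and 7, 4 and 2 counts in the labelled Atxn7l3-/- MEFs, 0.358 against 0.103 CPM, and without a filter its adjusted p by edgeR was 0.210. Mixl1 had 2, 0 and 0 counts in WT and 13, 2 and 2 in the labelled Atxn7l3-/- libraries, so that a single library was above the floor. Evx1 (0, 0 and 7 counts in WT and none in the others), Cdx1, Mesp1 and T had at most 7 counts in any MEF library.

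**Figure D4:**
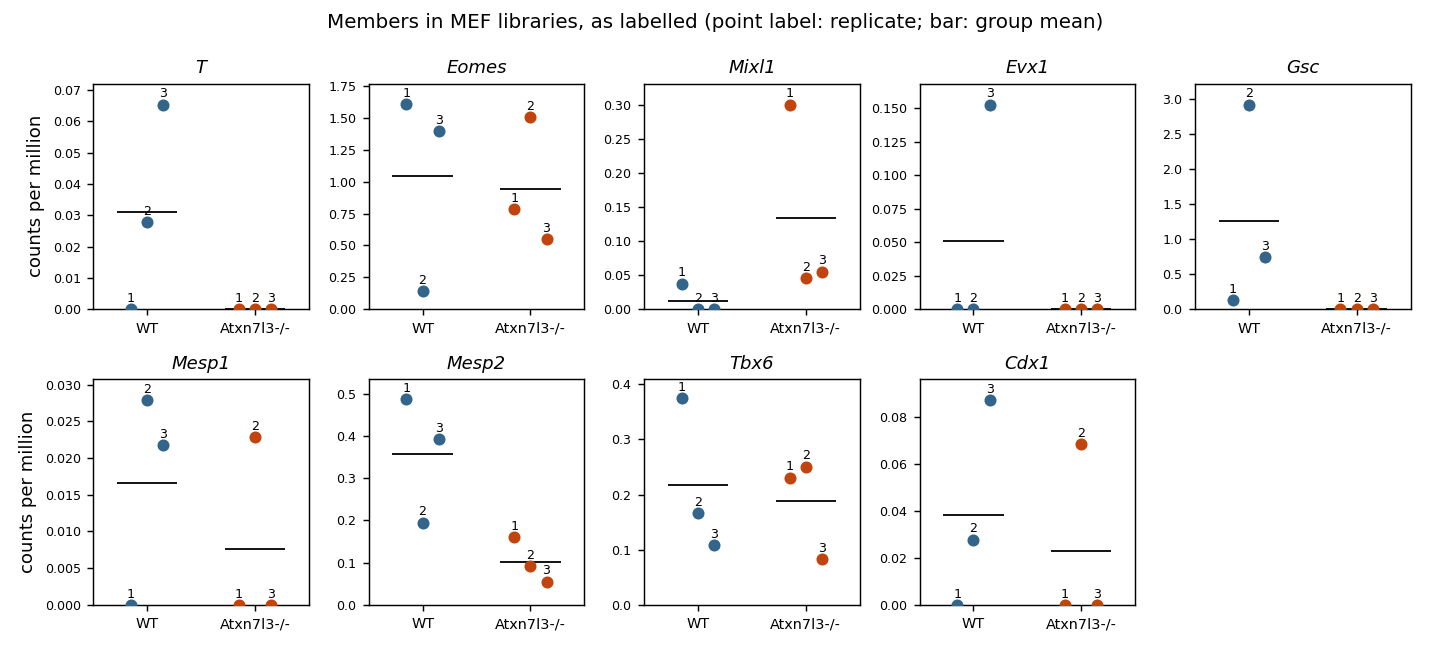
Level of the 9 members of the MEF table in the 6 MEF libraries, in CPM on a linear axis that starts at 0, with a point per library numbered by replicate and a bar at the group mean. Genotypes are as labelled. Gsc is present in all 3 WT libraries, from 7 to 105 counts, and at 0 in the other libraries, while Eomes and Tbx6 overlap between the groups.

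Marker genes of other cell types also differed between the MEF groups. The 8 mesothelial markers summed to at most 44.2 CPM in WT MEFs and to between 5395 and 7656 CPM in MEFs labelled Atxn7l3-/-, with 0 or 1 of the 8 at or under 3 counts in a library, and 6 of the 8 were called higher. The 8 macrophage markers summed to between 473 and 949 CPM in WT and reached 5335 CPM in library 1 labelled Atxn7l3-/-, with none of the 8 called. Trophoblast and endoderm markers summed to at most 21.1 and 348 CPM in WT and to at least 215 and 511 CPM in libraries labelled Atxn7l3-/-. There Krt7, Gata4 and Gata6 were called higher and Sox21 and Sox7 were called lower. The trophoblast sum is carried by Krt7 (2.05 CPM in WT and 360 CPM in labelled Atxn7l3-/- MEFs). Plac1 also stood higher (0.841 and 27.4 CPM), while Gata3, Hand1, Ascl2, Gcm1, Sox21, Tfap2c and Elf5 had lower means. Between 4 and 7 of the 10 trophoblast markers were at or under 3 counts in a labelled Atxn7l3-/- library. Of the endoderm markers, Gata6 (8.58 CPM in WT and 249 CPM in labelled Atxn7l3-/- MEFs), Gata4 (1.99 and 75.3 CPM), Pdgfra, Foxa2, Dab2 and Afp had higher means. Sox7, Sox17, Amn and Ttr had lower means, with Ttr at 6.01% of WT. Pdgfra is also on the fibroblast list. The 12 fibroblast markers lay between 17134 and 51879 CPM in WT and between 30681 and 46776 CPM in labelled Atxn7l3-/- libraries, and gut epithelium and endothelial markers were at most 70.6 CPM, all without a call. Fn1, Col1a1, Col1a2 and Col3a1 carry the fibroblast sum, and the list's median log2 fold change was -0.73. Postn (1582 and 55.7 CPM) and Prrx1 (457 and 114 CPM) stood lower in every labelled Atxn7l3-/- library. Dcn (133 and 1474 CPM) stood higher in every one, and the other markers overlapped. WT library 3 expressed Xist at 13777 counts and Uty at 0, unlike the other 5 MEF libraries. The part of these differences in the values of the members was not tested.

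The effect of genotype was compared between the cell types by an interaction term in a single fit of all 11 libraries. Of 8 members tested, 2 differed, Mesp2 and Gsc, both lower in the MEF effect, where 11.4% of all 19326 genes differed (6.14% higher and 5.27% lower). Mesp2 stood higher in the Atxn7l3-/- mESCs and lower in the labelled Atxn7l3-/- MEFs, and its effects differed by -3.54 on the log2 scale (standard error 0.83, adjusted p = 0.0261 from edgeR). With the replicate block, the adjusted p was 0.0522. Gsc had the same pair of directions, and its fitted difference of -10.38 (adjusted p = 0.0256 from edgeR) depends on the prior count, since it is 0 in 3 libraries. Without WT mESC library 1, WT mESC library 2, Atxn7l3-/- mESC library 1 or Atxn7l3-/- mESC library 3, neither gene passed, at adjusted p of 0.0958, 0.133, 0.0585 and 0.0507 for Mesp2 and 0.112, 0.0895, 0.0568 and 0.0531 for Gsc. Mesp2 also did not pass without labelled Atxn7l3-/- MEF library 2 (0.0592). Mixl1 had the opposite pair of directions, lower in mESCs and higher in MEFs, and its difference of 3.81 did not pass (adjusted p = 0.0879). For Eomes and Tbx6 the differences were 1.26 and -1.51, with adjusted p of 0.457 and 0.265 by edgeR.

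Between cell types, the WT libraries gave lower levels in MEFs for 3 of 8 members tested, with 53.9% of all genes called (26.8% higher and 27.1% lower in MEFs). T and Mixl1 were at or under 3 counts in every WT MEF library and were therefore at least 25.7-fold and 12.4-fold lower than in WT mESCs. Cdx1 fell by 8.43 on the log2 scale (adjusted p = 0.000120 from edgeR). Eomes at -1.89, Mesp2 at -1.33, Tbx6 at -1.41 and Evx1 at -2.64 were not called, with adjusted p between 0.0679 and 0.110 by edgeR. Gsc at 2.47 was the member with the higher value in MEFs, also uncalled (adjusted p = 0.112). Without WT MEF library 1, Tbx6 (-2.06, adjusted p = 0.0290) and Gsc (3.01, adjusted p = 0.0293) passed by edgeR, and without WT MEF library 3 so did Evx1 (adjusted p = 0.0158).

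Among libraries labelled Atxn7l3-/-, 5 of 8 members were lower in MEFs, with 61% of all genes called (29.5% higher and 31.5% lower). Mesp2 had a log2 difference of -4.88 (standard error 0.61, adjusted p = 8.23e-05 from edgeR) and Tbx6 one of -2.93 (standard error 0.61, adjusted p = 0.00193). Cdx1 and Gsc were at least 199-fold and 11.5-fold lower, computed against the floor. T passed too (adjusted p = 0.0160), but both cell types are about at the floor there, so no fold is given. Mixl1 joined these when MEF library 1 labelled Atxn7l3-/- was left out (adjusted p = 0.0159 by edgeR). Neither of these comparisons between cell types was corrected for the difference in culture, and the cell types share no library.

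The other genes of the streak and caudal programme were described by lists chosen with earlier results of these data known. Of 20 further streak and caudal genes, 15 were tested in mESCs, and 3 were lower and none higher, with a median log2 fold change of -0.43 against 0.04 over all genes. Nkx1-2, a homeobox gene of the caudal epiblast, fell by 6.70 on the log2 scale (standard error 0.94) to at most 0.0301 CPM, a level at which the size of the change depends on the prior count. Sp5, a zinc finger gene that WNT signalling switches on, fell by 3.81 (standard error 0.65), and Tbx3, which mESCs also express as a pluripotency factor, fell by 1.15 (standard error 0.20). Like T, the first of these was almost absent from the Atxn7l3-/- libraries.

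Of 25 tested genes of the NODAL, WNT, BMP and FGF pathways, 3 were lower and 1 higher in Atxn7l3-/- mESCs. Dkk1, a secreted WNT inhibitor, fell by 4.21 on the log2 scale (standard error 0.69) from 6.29 to 0.342 CPM. Axin2, a negative regulator and widely used target of WNT signalling, fell by 2.08 (standard error 0.22) from 62.6 ± 10.0 to 14.8 ± 0.778 CPM. Tdgf1, the NODAL co-receptor, fell by 1.71 (standard error 0.31), and Smad3, a transducer of NODAL signals, rose by 1.09 (standard error 0.20). The list's median was -0.37. The 7 genes named from these lists had adjusted p between 0.0211 and 0.0299 by edgeR and, like T and Cdx2, passed in 2 of the 5 fits that left out a library.

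Of 11 tested genes of NOTCH signalling and presomitic mesoderm, the tissue of Mesp2 and Tbx6, Dll1 was higher and Hes1 lower in Atxn7l3-/- mESCs. Dll1, a NOTCH ligand, rose by 5.43 on the log2 scale (standard error 0.92) from 1.20 ± 0.127 CPM to 51.8 ± 36.4 CPM, with the Atxn7l3-/- libraries between 9.77 and 73.9 CPM. Hes1, a repressor that NOTCH induces, fell by 2.79 (standard error 0.40). Of 15 tested posterior Hox genes, which CDX factors help to activate, Hoxa9 rose by 2.64 (standard error 0.61, adjusted p = 0.0454 from edgeR) and the list's median was 1.51. When each library in turn was left out, Dll1 and Hes1 passed in 2 of 5 fits and Hoxa9 in 1. The plot of the lists in mESCs sets these genes beside the members.

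**Figure D5:**
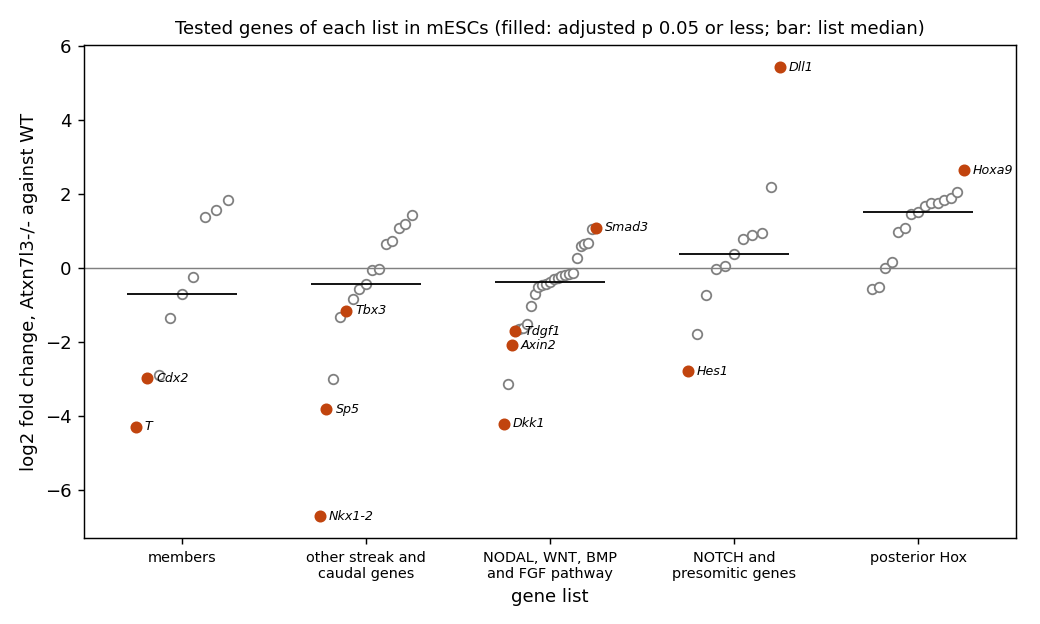
Log2 fold change of Atxn7l3-/- against WT mESCs for the tested genes of the members and of 4 related lists, with a point per gene, a bar at the list median and filled points for an adjusted p of 0.05 or less. The called members T and Cdx2 are at -4.29 and -2.99, and the called genes of the other lists reach from Nkx1-2 at -6.70 to Dll1 at 5.43.

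In MEFs the medians of the streak and caudal list and of the signalling list were also below 0, at -1.30 and -0.25, and those of the presomitic and posterior Hox lists were below 0 where they had been above it in mESCs. Gata4, Gata6 and Cyp26a1 were higher in the labelled Atxn7l3-/- libraries, by 5.26, 4.86 and 2.55 on the log2 scale, and Tbx3, called lower in both cell types, fell by 2.04, among 10 tested streak and caudal genes. Of 13 tested posterior Hox genes, 6 were lower, with a list median of -4.16 against -0.06 over all genes, and Hoxd13, Hoxa11, Hoxa10 and Hoxa9 had the largest changes, from -9.27 to -4.97. With the replicate block, Hoxa10 and Hoxa9 did not pass (adjusted p = 0.0714 and 0.0636 by edgeR). Of 11 presomitic genes, Pcdh8, Hey1 and Notch1 were lower (-7.54, -4.06 and -2.49) and Tbx18 was higher (3.13), and of 18 signalling genes only Wnt5b was called (-2.52). Pcdh8 had 0.538 CPM in WT and 0 in the labelled Atxn7l3-/- MEFs, and Hoxd13 had 11.7 and 0.0154 CPM. The sizes of both changes therefore depend on the prior count. Gata6 passed in all 6 fits that left out a library, Tbx18 in 5, Hey1 in 4 and each of the other genes named here in 1 to 3. The mesothelial markers described above moved with these genes, and their part was not tested.

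The genes whose profile over the 11 libraries was most like that of a member were taken as those with the smallest root mean square (RMS) difference between centred log2 CPM values, among 19325 genes. For T these were 1700057H21Rik (0.399) and AC211878.2 (0.426), where the standard deviation of T itself over the libraries was 1.89. For Mesp2 they were 1700007K13Rik (0.361) and Gnal (0.452), and for Tbx6 Rnf32 (0.318) and 2700097O09Rik (0.382). For Eomes they were Gm42783 (0.520) and Cers3 (0.523), for Mixl1 Tmem8 (0.496) and Evpl (0.532), and for Evx1 4932412D23Rik (0.423) and Serpinb5 (0.559). Gsc and Cdx1 had no gene closer than 0.709 (Slc27a3) and 0.610 (Cyp2b23). No member was among the nearest genes of another member. The libraries share cell type and genotype, so these values describe likeness over 11 libraries and nothing more.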

How the data were processed

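Poly(A) RNA-seq libraries of 11 samples, between 34515342 and 49602605 counts each, were analysed from a table per cell type. According to the submitters' processing notes, the authors used bcl2fastq 2.17.1.14, cutadapt 1.10, STAR 2.5.3a, HTSeq 0.6.1p1 and DESeq2 1.16.1 with build mm10. Annotation release and counting strand are not given in the sources used here. The deposited tables hold raw read counts per gene, a signal made by the authors (counts divided by a DESeq2 size factor, also per kb of transcript) and the median transcript length in bases (other). The columns of the authors' own comparisons (fold changes, p-values) were not used, nor was the WT mESC dataset the study left out.

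Counts were filtered (filterByExpr), scaled by TMM and tested with edgeR 4.0.16 (glmQLFit, glmQLFTest; R 4.3.3) in each cell type, with 1 fit of all 11 libraries for comparisons between cell types. P-values were adjusted over all genes tested (Benjamini-Hochberg), with calls at 0.05 or less, and standard errors are |log2 fold change| divided by the root of F. Scripts were tested on simulated data. DESeq2 1.42.0, other filters, RLE and upper-quartile scaling, the study's thresholds (2-fold and over 10 normalized reads per kb), the replicate block and leaving out each library were alternatives. Samples were grouped by genotype and cell type in the labels. The lines came from separate blastocysts or embryos. In MEFs, libraries with the same replicate number deviated together (correlations of 0.473, 0.161 and 0.240 over genes), a pairing seen in the data and not stated in the labels. The main fits did not pair the samples, and the numbers entered only in the alternative with the replicate block. Named were all members, Atxn7l3, up to 4 called genes per list, direction and cell type by size, and the 2 genes nearest each member. A few further marker genes and the sex-linked genes were named after their values were seen. The members and lists were chosen with earlier results of these data known. Counting intervals and floors (3 counts per library) cover counting error only. Promoter sequences are from RefSeq (GRCm38.p6).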

Additional observations from a re-analysis of the deposited data

Results flagged for a closer look

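For the members and the named list genes, the effect of genotype was compared between MEFs and mESCs, and 13 genes differed by the interaction term with adjusted p at or under 0.05 by edgeR. Values are the log2 effect in MEFs minus that in mESCs. Mesp2 (-3.54, adjusted p = 0.0261) and Gsc (-10.38, adjusted p = 0.0256) are the members among them, with the values per library given above. Dkk1 differed by 4.33 (adjusted p = 0.0414) and Hes1 by 2.02 (adjusted p = 0.0344), both of which were called lower in mESCs and not called in MEFs. Dll1 differed by -6.81 (adjusted p = 0.00760), at 1.20 CPM in WT and 51.8 CPM in Atxn7l3-/- mESCs against 0.471 CPM in WT MEFs and 0.166 CPM in MEFs labelled Atxn7l3-/-. Hoxa9 differed by -7.57 (adjusted p = 0.0151), being called higher in mESCs and lower in MEFs. Gata4 differed by 4.24 (adjusted p = 0.0163), Gata6 by 4.98 (adjusted p = 0.00971) and Tbx18 by 2.30 (adjusted p = 0.0214), with higher calls in MEFs only. With the replicate block, Dkk1, Hes1, Tbx18 and Mesp2 did not pass (adjusted p = 0.0708, 0.0598, 0.0566 and 0.0522 by edgeR). Notch1 differed by -2.82 (adjusted p = 0.0154), Hoxd13 by -9.23 (adjusted p = 0.0125), Hoxa11 by -7.52 (adjusted p = 0.0259) and Hoxa10 by -7.53 (adjusted p = 0.0196), with lower calls in MEFs only. The size for Hoxd13 depends on the prior count, as that for Gsc does. The MEF libraries labelled Atxn7l3-/- also carry the higher mesothelial markers and 59.9% of the WT Atxn7l3 level, and the part of either in these differences was not tested.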

How the results depend on the processing

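All genotype values of mESCs rest on 2 WT libraries, most MEF counts of the members are under 10, and floors rest on 3 counts. No member called in a comparison changed direction under any alternative in which it was tested. In mESCs the calls were 0 members higher and 2 lower, and 548 and 690 genes. Without a filter they were 1 member higher, with 1390 and 1605 genes. A minimum of 10 counts in every library removes T and Cdx2 because of their low Atxn7l3-/- counts, so that neither was tested and the members' count of 0 says nothing of their calls, and 449 genes were lower. DESeq2 gave 2 members higher and 3 lower, with 1695 genes each way. A fit of all 11 libraries, which cannot hold Cdx2, gave 1 member lower (T), with 144 and 302 genes, and the study's thresholds gave 1 member lower (Cdx2) and 342 genes lower. T fails the median of those thresholds because of its low Atxn7l3-/- counts. Libraries of high Ddx3y counts, chosen after seeing the data, gave 1 member higher, with 1806 and 2084 genes. Leaving out 1 library gave 0 to 2 members lower and 0 higher, with 0 to 1061 genes higher and 0 to 1181 lower. The lowest counts came without WT 1 or WT 2.

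In MEFs the calls were 0 members, and 800 genes higher and 701 lower. Without a filter, with DESeq2 and in a fit of all 11 libraries, 1 member (Gsc) was lower. The gene counts were 514 and 332 with at least 10 counts in every library, 1595 and 2325 with DESeq2, and 1513 and 2056 in a fit of all 11. Without WT 3, the library with few Y-linked counts (chosen after seeing the data), they were 120 and 77. Leaving out 1 library gave 120 to 989 and 77 to 1049 genes and 0 members. By the mean in place of the median, 2 members exceeded 10 normalized reads per kb in MEFs. Upper-quartile scaling moved the median of all genes from -0.06 to -0.17.

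The pairing was tested with a replicate block. In MEFs it gave 1355 genes lower, and for the difference between cell types 1 member lower (Gsc, in place of 2) and 615 genes higher, in place of 1187. In mESCs the correlations of same-numbered libraries were 0.00777 and -0.172. The 2 WT libraries mirror each other around their mean, so these values cannot tell whether the numbers pair the samples. With the block T and Cdx2 were still called (adjusted p = 0.00992 and 0.0343 by edgeR). In the genotype comparisons and in the difference between cell types, the block changed no call of a member beside that of Mesp2, and it was not run for the comparisons of WT cells or of Atxn7l3-/- cells. Among the other named genes it took the call from Hoxa9 and Hoxa10 in MEFs, and from Dkk1, Hes1 and Tbx18 in the difference between cell types.

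Leaving out 1 library, the difference between cell types gave 0 to 2 members lower and 0 higher, with 197 to 1531 genes higher and 56 to 1609 lower. WT cells gave 0 to 1 member higher and 3 to 4 lower, with 2991 to 5263 and 3527 to 5278 genes, and Atxn7l3-/- cells 0 higher and 5 to 6 lower, with 4896 to 5904 and 5157 to 6395 genes. Values that turned sign were all uncalled. In MEFs, Eomes was at 0.027 with the block, and without 1 library between -0.65 and 0.29, with 0.29 without WT 1, 0.14 without WT 3 and 0.15 without KO 3. Tbx6 lay between -0.50 and 0.17 (without KO 3). In the difference between cell types, leaving out 1 library, Cdx1 lay between -3.62 and 1.22 (also 0.10, 0.26 and 0.21), Evx1 between -2.06 and 2.92, Axin2 between -1.47 and 1.05 (also 0.14, 0.01, 0.35 and 0.37), and Tdgf1 between -2.55 and 1.76. The cause was not tested.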
